A study of Mus musculus with 6 samples.

Results

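The comparison set the 3 arrays labelled replicate 2 against the 3 labelled replicate 1, that is, all 6 arrays of the series, chosen by the number in their titles. Each number holds 1 array of each group. All cells were labelled embryonic fibroblasts of the mouse (MEFs), infected with SKO and sampled at day 8 of reprogramming. The groups differed in what was added to SKO: Flag, the control; Gadd45a, a stress gene of growth arrest; or G39A, described as a negative mutant of Gadd45a. SKO, not expanded in the labels, commonly means the reprogramming factors Sox2, Klf4 and Oct4, where Oct4 is encoded by Pou5f1. After infection the cells were kept in serum medium with the cytokine LIF, and neither the promoter of the introduced genes nor the strain is given in the sources used here. Total RNA was amplified, labelled with Cy3 and hybridised to 1-colour arrays. No label says that the replicates were separate cultures, so every p-value here measures only the spread between these arrays.

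The arrays of replicate 2 share 1 slide. Those of replicate 1 lie on 2 other slides, Flag and Gadd45a on one and G39A on the other. Slide, scan and replicate number therefore cannot be told apart. Between 57.0% and 62.9% of the spots were well above background on the replicate 1 arrays and between 59.6% and 62.9% on the replicate 2 arrays. Repeat spots of a probe had a median coefficient of variation of 11.49% to 12.04% and of 8.74% to 10.001%, in the same order. The brightest spike-in control had a log2 signal of 17.91 to 17.95 on 5 arrays and 18.36 on G39A replicate 1, and no spot was saturated.

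Reprogramming turns fibroblasts, which are mesenchymal cells that make collagen and matrix, into pluripotent cells that resemble epithelium. Early in that course the cells lose matrix and contractile genes, take up junction genes such as Cdh1, and divide fast. Pou5f1 encodes the transcription factor Oct4, which is needed for pluripotency and is itself one of the introduced factors in most protocols. The marker genes set out for the comparison were Pou5f1 for pluripotent cells, Cdh1, Krt8 and Itgb4 for epithelium, and Mfap4, Lum, Pdgfra and Thy1 for fibroblasts.

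These markers parted the numbers. The probe that reads Pou5f1 (chromosome 17, 35647280 to 35647340, mm9) starts at base 910 of its transcript. It is shown because the largest difference among the marker genes rests on these bases.
Pou5f1 probe: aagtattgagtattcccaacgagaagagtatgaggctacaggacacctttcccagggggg

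On the replicate 1 arrays the signal of Pou5f1 was 3851, 5153 and 6363, and on the replicate 2 arrays 3.6, 4.2 and 4.4. Here and below, sets of 3 signals run in the order Flag, Gadd45a, G39A. The replicate 2 values were not well above background, so the ratio is a lower bound: the level was at least 228-fold lower in replicate 2. That bound sets the mean of the bright arrays against the lowest signal that counted as well above background, which lay between 17.1 and 35.1 over the 6 arrays. As textbook knowledge of the gene places these bases in its open reading frame, the probe should read introduced mouse Pou5f1 as well as the cells' own. Whether SKO includes Oct4, and of which species, is not stated in the labels, and the promoter of the introduced genes is not given. The replicate 2 signals of this probe therefore do not tell whether those cells received SKO, which was not tested. Each direction below is that of the arrays as labelled.

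Klf4, another of the usual factors, was bright throughout, at 16286, 15458 and 16048 in replicate 1 and 19103, 17372 and 19703 in replicate 2. It was 0.41 ± 0.10 higher on the log2 scale in replicate 2 (limma, adjusted p = 0.0145). This call was lost with quantile normalization (0.22, adjusted p = 0.0832), in the deposited value table (0.22, adjusted p = 0.0807) and without either G39A array (0.32, adjusted p = 0.0726). Sox2 was well above background only on Flag replicate 2, at 21.9. Nanog, a pluripotency factor that the cells must switch on themselves, gave 23.1, 34.0 and 40.2 in replicate 1 and 7.2, 4.3 and 4.5 in replicate 2. It was well above background on Flag and G39A replicate 1 and on 0 of replicate 2. The lowest signal with that mark was 19.3 on Flag replicate 1 and 35.1 on Gadd45a replicate 1, so Nanog lies near the limit of detection. Gadd45a gave 1017, 560 and 1395 in replicate 1 and 2309, 1870 and 2147 in replicate 2, which do not overlap, a difference of 1.36 ± 0.20 (SE, 3 arrays a number; adjusted p = 0.00243). Its probe was dimmer in the group labelled Gadd45a than in Flag under both numbers. The probes of Klf4, Sox2 and Gadd45a start at bases 2160, 1846 and 878 of their transcripts. Whether the introduced genes carry those bases is not given in the sources used here. The signals of these probes therefore do not tell whether introduced copies were present.

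Cdh1, the cadherin that joins epithelial cells (chromosome 8, 109193812 to 109193871), had signals of 360, 366 and 482 in replicate 1. In replicate 2 they were 3.8, 4.8 and 4.7, none well above background, at least 18.1-fold lower. Krt8, a keratin of simple epithelium, gave 2208, 2728 and 2731 against 131, 169 and 211, a difference of -3.75 ± 0.13 (adjusted p = 1.77e-05). Itgb4, the integrin subunit of hemidesmosomes, gave 41167, 37449 and 47335 against 677, 495 and 651, or -5.94 ± 0.09 (adjusted p = 5.23e-06). All 3 epithelial markers were thus lower on every replicate 2 array than on any replicate 1 array.

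The fibroblast markers lay the other way. Mfap4, a protein of elastic microfibrils (chromosome 11, 61302096 to 61302155), gave 120, 105 and 117 in replicate 1 and 13649, 6849 and 11452 in replicate 2. Lum, the collagen-binding proteoglycan lumican, gave 765, 574 and 1065 against 23302, 22412 and 22819. Pdgfra, a growth factor receptor of mesenchyme, gave 227, 186 and 268 against 6260, 4712 and 5608. Thy1, a surface protein of fibroblasts whose loss is an early step of reprogramming, gave 17531, 17352 and 20100 against 106233, 99146 and 104161. The differences were 6.66 ± 0.16, 5.05 ± 0.16, 4.79 ± 0.09 and 2.67 ± 0.08 in this order, with adjusted p of at most 1.33e-05. Set against the label of embryonic fibroblast, the defining fibroblast markers were well above background on all 6 arrays. In bulk RNA, fewer cells of a type and less RNA per cell cannot be told apart.

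**Figure D1:**
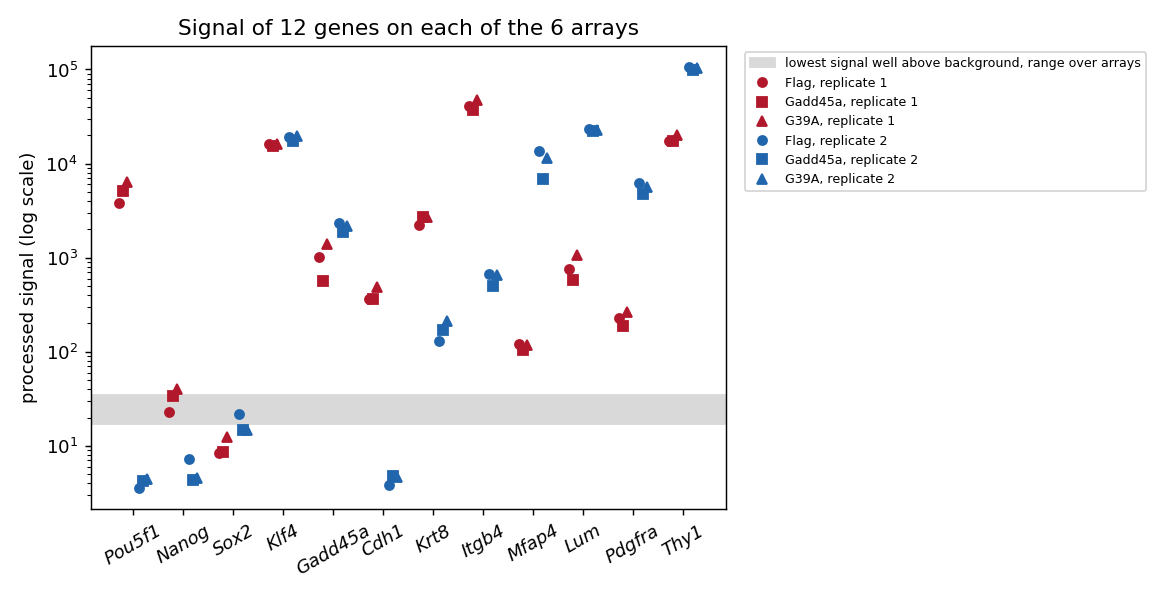
Processed signal (log axis) of the 12 genes on each array, replicate 1 in red and replicate 2 in blue, with circles for Flag, squares for Gadd45a and triangles for G39A; the grey band is the range over arrays of the lowest signal well above background. Pou5f1 and Cdh1 lie above the band in replicate 1 and below it in replicate 2, and Mfap4, Lum, Pdgfra and Thy1 are higher on every replicate 2 array.

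Across the array the number moved far more probes than the groups did. Of 21637 probes well above background on all 6 arrays, 12590 passed limma's test with group as a block (58.2%), 7337 of them higher in replicate 2 (33.9%) and 5253 lower (24.3%). Of these, 3811 differed at least 2-fold (17.6%), 1859 higher (8.59%) and 1952 lower (9.02%). On 14456 probes (66.8%) the 3 values of one number did not overlap those of the other. The median size of the difference was 0.38 (log2), against 0.11 for Gadd45a minus Flag and 0.09 for G39A minus Flag in the same model, where 0 probes passed for either. At an unadjusted p under 0.05 those group comparisons had 1833 and 580 probes. Differences of at least 2-fold numbered 3822 for the number, 99 for Gadd45a and 40 for G39A.

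The arrays sorted by number. The correlation of signals over probes, which are not independent, was 0.992 to 0.997 for arrays sharing a number and 0.923 to 0.925 for the pair from any one group. Within replicate 1 the arrays that share a slide correlated at 0.996, and G39A, on its own slide, at 0.994 with Flag and 0.993 with Gadd45a. On a principal component analysis the first axis took up 90.4% of the variance, with replicate 1 on one side and replicate 2 on the other. The direction was alike in the groups: 16539 of the 21637 probes had one sign in all 3, as did 3809 of the 3811 probes called at 2-fold or more, and on 2949 every group showed a 2-fold or larger difference in one direction.

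**Figure D2:**
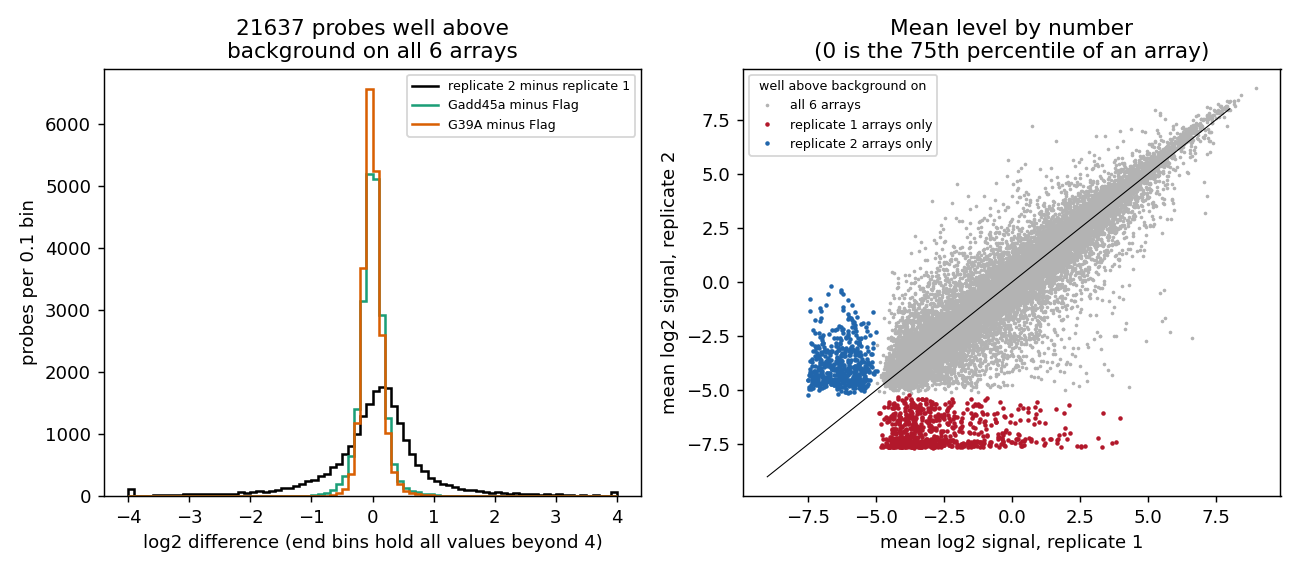
Left, number of probes per 0.1 bin of log2 difference for replicate 2 minus replicate 1 (black), Gadd45a minus Flag (green) and G39A minus Flag (orange); right, mean log2 signal in replicate 1 against replicate 2, grey for probes well above background on all 6 arrays, red for replicate 1 only and blue for replicate 2 only, with the line of equality. The black curve is the widest, with a median size of 0.38 against 0.11 and 0.09.

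Below, each gene counts once, by its probe of highest mean signal. Of 14105 tested genes 8432 passed (59.8%), 4981 higher in replicate 2 (35.3%) and 3451 lower (24.5%), with a median difference of 0.11. The numbers did not overlap for 9749 genes (69.1%). Each gene list is read against these shares. Values after a gene are log2 differences, replicate 2 minus replicate 1, unless called signals.

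Epithelial genes were low in replicate 2. All 11 tested members of the adhesion and junction list passed as lower, with a median of -2.82. Of the 38 listed, 10 more were well above background on the 3 replicate 1 arrays alone and only Cdh3 on the 3 replicate 2 arrays alone. Over all probes these shares were 1.73% and 1.3%. The summed signal of the list ran from 27469 to 28948 in replicate 1 and from 3639 to 5769 in replicate 2.

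Among the desmosome genes, Dsp, the plaque protein desmoplakin, had signals of 3968, 3491 and 3646 against 109, 175 and 109 (-4.68 ± 0.19, adjusted p = 2.54e-05). Pkp3, a plakophilin of the same plaque, differed by -3.43, and the desmosomal cadherins Dsg2 and Dsc2 were at least 3.55-fold and 3.86-fold lower. Among tight junction genes, Ocln, which encodes occludin, was at least 8.18-fold lower, Marveld2 at least 5.63-fold and the scaffold Tjp3 at least 2.88-fold. Dsg2, Dsc2, Ocln, Marveld2 and Tjp3 were seen on the replicate 1 arrays alone, so their direction was fixed by that choice.

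Epcam, the epithelial cell adhesion molecule, gave 583, 559 and 715 in replicate 1 and 6.2, 5.0 and 5.2 in replicate 2, at least 27.9-fold lower. Transcription factors of epithelium followed: Ehf, an ETS factor, had signals of 1930, 1653 and 1751 against 13.9, 11.5 and 12.8 (at least 80.6-fold lower). Grhl1, of the grainyhead family, was at least 5.20-fold lower on one probe, while its other probe, at 60.0 on Flag replicate 2, overlapped between the numbers. Cdh3, which encodes P-cadherin, was the exception. Its signals were 10.5, 8.0 and 16.5 in replicate 1 and 583, 524 and 577 in replicate 2, at least 25.9-fold higher.

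Snai1, Snai2 and Zeb1, which can repress epithelial genes, were higher in replicate 2. Snai1 and Snai2 are zinc finger factors that bind the E-box CACCTG and repress Cdh1. On the opposite strand this motif reads as CAGGTG, and both spellings were searched. Snai2 had signals of 3616, 3361 and 3465 in replicate 1 and 12347, 12322 and 12246 in replicate 2. Zeb1, which reads the same motif, differed by 1.01 ± 0.08 (adjusted p = 0.00029). Signals of Snai1 were 1146, 1292 and 1148 in replicate 1 and 7158, 5939 and 5974 in replicate 2, without overlap (2.58 ± 0.10, adjusted p = 2.06e-05). These 3 belong to the fibroblast list and were picked here after their values were seen.

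The promoters of Epcam and Krt8 are shown because both genes were low in replicate 2 while Snai1, Snai2 and Zeb1 were high. They are the 250 bases before the start of each gene, from RefSeq on GRCm38.p6, with the E-box in capitals.
Epcam, chr17:87635729-87635978, plus strand: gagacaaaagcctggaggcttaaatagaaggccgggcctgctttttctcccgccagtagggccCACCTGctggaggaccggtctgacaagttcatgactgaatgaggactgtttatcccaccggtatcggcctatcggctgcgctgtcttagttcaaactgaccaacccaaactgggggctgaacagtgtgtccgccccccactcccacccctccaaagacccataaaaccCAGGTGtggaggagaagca
Krt8, chr15:102004343-102004592, minus strand: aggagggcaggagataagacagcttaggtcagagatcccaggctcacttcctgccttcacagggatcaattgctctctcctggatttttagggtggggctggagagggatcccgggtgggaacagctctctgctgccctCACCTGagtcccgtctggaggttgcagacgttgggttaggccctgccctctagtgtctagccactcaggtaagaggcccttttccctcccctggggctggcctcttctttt

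The Epcam promoter holds the motif at 187 and 19 bases before the start and the Krt8 promoter at 111 bases. Over the 27025 promoters of the table, 17.1% hold it in such a window. The share was 25.6% (89 of 348 with an entry) for genes seen only on the replicate 1 arrays, those with another tested probe left out, and 13.7% (31 of 227) for those seen only on the replicate 2 arrays. Of the 38 epithelial list genes, 20 had an entry and 10 of them held it. The share was 14.2% for tested genes (1389 of 9796), 18.9% (179 of 948) for those called at least 2-fold lower in replicate 2, which include Krt8, and 14.2% (136 of 959) for those called at least 2-fold higher. The promoters also differed in base makeup, with a median of 5 CpG in the set seen only in replicate 1, 6 in that seen only in replicate 2 and 16 among tested genes, and the part of this in the shares was not tested. A match says only that these letters are present. Whether Snai1, Snai2 or Zeb1 act on these genes was not tested.

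Pluripotency genes moved in both directions. Of 35 listed, 11 were tested, 5 passed as higher and 3 as lower in replicate 2, and the median was 0.24. The lower ones each differed more than 2-fold, among them Alpl, the alkaline phosphatase used to stain pluripotent colonies (-3.94 ± 0.13), and Fbxo15, an Oct4 target (-2.66). Alpl signals were 1050, 1004 and 1311 against 78, 61 and 55. The higher ones stayed under 2-fold, led by Lefty1, a Nodal inhibitor, at 0.56, Dppa2 at 0.55 and Klf5 at 0.52, whose other tested probe was at -0.13.

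Besides Pou5f1, 4 genes of this list were well above background on the replicate 1 arrays alone. Tfcp2l1, a factor of the naive state, had signals of 729, 1242 and 1212 against 14.9, 9.6 and 16.1 (at least 46.8-fold lower). Zfp42, the marker Rex1, was at least 11.1-fold lower, Nr0b1 at least 3.38-fold and Gdf3 at least 3.11-fold. No listed gene was seen on the 3 replicate 2 arrays alone. Over all probes, 1.73% were seen on the replicate 1 arrays alone and 1.3% on the replicate 2 arrays alone. Another 8 listed genes were well above background on no array, among them Lin28a and Utf1, which mark late stages.

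Keratins are the filament proteins of epithelium, and the cornified envelope is the outer shell of skin cells. Among keratins 6 of 10 tested passed as lower and 1 as higher (median -0.96). Krt16 differed by -4.10 and Krt14, of the basal layer, by -2.69. Krt7, a keratin of simple epithelium, stood against them with signals of 405, 419 and 500 in replicate 1 and 2354, 3388 and 2689 in replicate 2 (2.83 ± 0.14). Of the cornified envelope genes 4 of 7 passed as lower and 2 as higher, with Krtdap at -2.65 and Lgals7 at -2.60. The higher ones were Cdsn (0.75) and Sprr2a1 (0.30), the latter with signals of 42031, 41203 and 45099 in replicate 1. The summed signal of the list overlapped between the numbers, at 56408 to 58051 in replicate 1 and 55392 to 57518 in replicate 2. Cnfn, which encodes cornifelin, was at least 49.3-fold lower.

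Integrins and laminins went both ways. Of 23 tested, 10 passed as higher and 11 as lower (median -0.27). Lower in replicate 2 were parts of the hemidesmosome and its laminin: Itgb4 above and Lamb3, whose signals of 1427, 1115 and 1594 stood against 6.0, 4.9 and 5.0 (at least 61.9-fold). Higher were Itga11, a collagen receptor of fibroblasts, with signals of 1242, 1306 and 1126 against 40725, 28748 and 34134 (4.98 ± 0.13), Itga8 (2.72) and Itga9 (2.17). Itga4, the fibronectin receptor subunit of leukocytes and migrating cells, was lower at -3.52.

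Matrix genes were high in replicate 2. Of 31 tested glycoproteins and proteoglycans 27 passed as higher and 3 as lower, with a median of 1.87. After Mfap4 the largest differences were in the small leucine-rich proteoglycans Aspn (5.21 ± 0.10) and Ogn (5.18 ± 0.14). Ogn signals were 572, 544 and 633 against 21629, 13185 and 22655. The 3 lower ones were Prelp (-2.64), the lysyl oxidase Loxl4 (-1.53) and the elastic fibre protein Fbln5 (-1.09).

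Of 22 tested collagens 14 passed as higher and 1 as lower, with a median of 0.90. Col12a1, a collagen that decorates fibrils, gave 1016, 984 and 1079 against 17627, 14980 and 14833 (4.12 ± 0.08). The fibrillar collagens Col5a1 and Col3a1 differed by 3.20 and 3.01. On 1 of its probes Col27a1 was seen on the replicate 2 arrays alone, at least 5.59-fold higher.

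The wider fibroblast list had 13 members higher and 3 lower of 24 tested (median 0.70). Pdgfrb, the second receptor of the family, differed by 2.66. Lower were Nt5e, the surface enzyme CD73, at -4.20 (signals 9841, 11364 and 13879 against 484, 727 and 490), Cd34 at -1.38 and Ly6a, which encodes Sca-1, at -1.29. Vim, the mesenchymal filament vimentin, gave 82603, 87976 and 138070 against 89191, 83095 and 88583, which overlap (-0.03, adjusted p = 0.856). The markers of fibroblasts thus did not all move one way.

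Smooth muscle contractile genes, which fibroblasts express when they become myofibroblasts, were all higher. Each of the 17 tested members passed as higher in replicate 2, with a median of 1.67. Acta2, the smooth muscle actin, had signals of 32009, 34065 and 33033 against 191900, 189506 and 184163 (2.69 ± 0.08, adjusted p = 1.31e-05). Tagln, the actin-binding protein transgelin, differed by 2.26 and the myosin light chain Myl9 by 2.38. Acta2, Tagln and Myl9 were picked after their values were seen, as the best known of the list. The largest differences were in Lmod1, an actin nucleator (4.03), Mylk, the myosin light chain kinase (3.97), and Cnn1, calponin (3.09).

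Many of these genes are targets of serum response factor, which binds the CArG box. Of 13 members with a promoter entry 2 held that box (15.4%), against 1.399% of all promoters in the table. The share was 1.24% for tested genes (121 of 9796). It was 2.09% (20 of 959) for genes called at least 2-fold higher in replicate 2 and 1.48% (14 of 948) for those lower. The share of the list rests on 2 genes, and whether serum response factor acts on them was not tested. The 250 bases before Myl9 are shown as one of the 2, with the box in capitals, 161 bases before the start.
Myl9, chr2:156775214-156775463, plus strand: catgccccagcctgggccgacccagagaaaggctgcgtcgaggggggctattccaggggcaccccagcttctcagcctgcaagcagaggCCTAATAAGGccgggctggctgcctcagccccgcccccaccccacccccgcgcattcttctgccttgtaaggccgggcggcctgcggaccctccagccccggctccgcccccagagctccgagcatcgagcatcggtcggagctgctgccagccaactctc

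Matrix proteases were also higher, with 15 of 18 tested metalloproteinases and inhibitors past the test that way and 2 the other way (median 1.83). Mmp13, a collagenase, had signals of 746, 676 and 684 against 8684, 12451 and 7882 (3.93 ± 0.16). The aggrecanases Adamts9 and Adamts4 differed by 3.77 and 3.53. Mmp15, a membrane-bound member, was lower at -0.75.

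Cytokines and other secreted factors were divided, with 11 higher and 7 lower of 23 tested (median 0.34). Il1rl1, the receptor of interleukin 33, gave 271, 200 and 185 against 13315, 26507 and 16922 (6.57 ± 0.29). The chemokines Cxcl12 and Cxcl5 differed by 4.91 and 3.95. Ptgs2, the inducible cyclooxygenase, was lower, with signals of 4309, 4675 and 5882 against 716, 2039 and 769 (-2.07 ± 0.33). Its Gadd45a replicate 2 array lay well above the other replicate 2 arrays, as did that of Ccl20 (36, 102 and 40).

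Cell cycle genes were lower in replicate 2. Of 28 G2 and mitosis genes 27 passed as lower and 0 as higher, with a median of -1.01. Foxm1, the factor that drives mitotic genes, had signals of 1760, 1870 and 2146 against 613, 483 and 622 (-1.58 ± 0.10, adjusted p = 9.21e-05). Nusap1, a spindle protein, differed by -1.58 and Cenpa, the histone of centromeres, by -1.45. Mki67, the proliferation marker, differed by -1.35 and was picked after its value was seen. The range of the list was narrow, from -1.58 to -0.23.

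Among 28 S phase genes 22 passed as lower and 2 as higher (median -0.64). Mcm10, which starts replication forks, differed by -1.42, the DNA ligase Lig1 by -1.33 and the ribonucleotide reductase Rrm1 by -1.28. Ccne1, which encodes cyclin E and opens S phase, was higher at 0.55. Of 25 p53 targets and cyclin-dependent kinase inhibitors, 17 passed as higher and 4 as lower (median 0.46). Cdkn1a, a member picked after its value was seen, did not pass (0.18, limma, adjusted p = 0.119). The inhibitors Cdkn1c, an imprinted gene, and Cdkn2a, of senescence, differed by 1.78 and 1.75. Cdkn2a signals were 538, 771 and 564 against 1885, 2154 and 1529. Perp, a p53 target that is also a desmosome protein, was lower at -2.12.

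**Figure D3:**
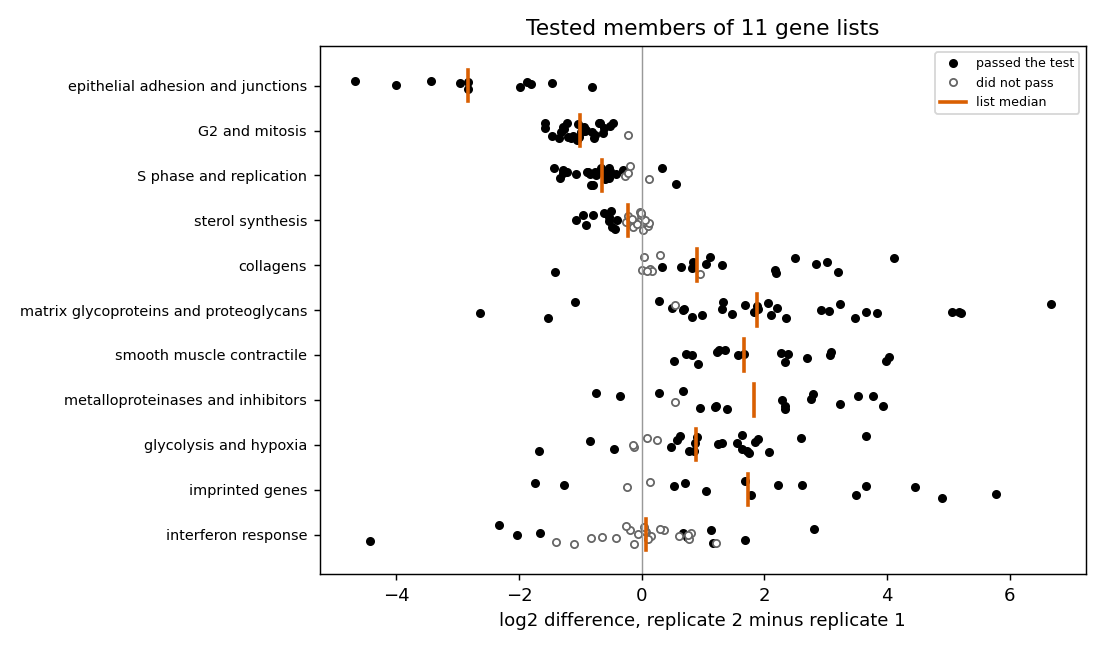
Log2 difference, replicate 2 minus replicate 1, of the tested members of 11 lists, filled where the gene passed limma's test and open where it did not, with the list median in orange; points are spread vertically only to separate them. All epithelial members lie left of 0 and all smooth muscle members right of it, and the interferon genes spread to both sides of a median of 0.07.

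Of 26 glycolysis and hypoxia genes 19 passed as higher and 3 as lower, with a median of 0.88. Slc16a3, the lactate exporter, had signals of 1158, 1351 and 1235 against 12236, 17848 and 12450 (3.66 ± 0.11), Bnip3, a hypoxia-induced mitophagy receptor, differed by 2.59 and the phosphofructokinase Pfkl by 2.08. Egln3, the oxygen sensor of the same pathway, was lower at -1.68. Sterol synthesis had 11 of 25 genes lower and 0 higher (median -0.22), led by Pmvk, the phosphomevalonate kinase, at -1.07.

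Respiratory chain subunits had 8 higher and 3 lower of 29 (median 0.21), all under 2-fold. Their median was -0.044 with quantile normalization and -0.046 in the deposited value table, each with 1 higher and 5 lower, and without any 1 pair of arrays only 2 to 4 passed. Ribosomal protein genes had 19 of 26 higher and 0 lower (median 0.38), but 4 passed with quantile normalization and 5 in the deposited value table.

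Stress lists showed single strong members. In the unfolded protein and ATF4 list 15 of 24 passed as higher and 1 as lower (median 0.39), and Trib3, a pseudokinase induced by ATF4, had signals of 941, 1203 and 1216 against 6238, 7391 and 6701 (2.78 ± 0.08). Ddit3, the stress factor CHOP, differed by 1.43. NRF2 targets were split, 9 higher and 9 lower of 20 (median -0.16): Hmox1, haem oxygenase, differed by 1.68 and the glutathione transferase Gsta4 by -2.89. Of 16 immediate early factors 9 passed as lower and 2 as higher (median -0.55). Nr4a1, an orphan nuclear receptor, differed by -2.29, Dusp1, a MAPK phosphatase, by -1.70 and Fos by -1.63, while Fosl2 was higher at 1.19.

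Signalling genes were mixed. In the TGF-beta and BMP list 13 of 27 passed as higher and 9 as lower (median 0.27). The higher ones were led by Tgfbi, a TGF-beta induced matrix protein (3.41), Ltbp2 (2.60) and the ligand Tgfb3 (2.46). The largest lower differences were those of the ligands Bmp2 (-3.03) and Bmp6 (-2.79) and of Id1, a BMP target (-2.12). Id1 signals were 8938, 10652 and 10773 against 2059, 2095 and 2018.

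In the WNT list 12 of 25 passed as higher and 7 as lower (median 0.33). Among ligands, Wnt10a was higher, with signals of 45, 45 and 36 against 925, 1218 and 1070 (4.85 ± 0.16), Wnt2 was lower at -2.48, and Wnt7a was at least 17.9-fold lower. The nuclear effectors Lef1 and Tcf7 were lower at -3.19 and -2.12. Dkk3 of the Dickkopf family was higher at 4.24, as was the receptor Fzd2 at 2.18.

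Imprinted genes of the fetal growth network, which embryonic fibroblasts express strongly, were higher in 12 of 16 tested cases and lower in 2 (median 1.73). Dlk1, a Notch-like ligand, had signals of 781, 671 and 931 against 56683, 21494 and 45031 (5.77 ± 0.20). H19, the maternally expressed noncoding RNA, gave 2812, 2141 and 3294 against 87964, 53169 and 77125 (4.89 ± 0.09), and Mest differed by 4.46. On all 3 of these genes the Gadd45a array was the lowest of replicate 2. Snrpn and Nnat were lower at -1.74 and -1.27. Hox genes, which record position along the body, had 13 higher and 2 lower of 28 (median 0.24), led by Hoxb9 at 1.58 and Hoxa11 at 1.42.

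Markers of other cell types were examined because a culture of embryonic fibroblasts can hold them. Their part in the differences above was not tested. Of 19 macrophage and leukocyte markers 6 of 10 tested passed as higher and 3 as lower, and the summed signal ran from 5322 to 6727 in replicate 1 and from 6307 to 10084 in replicate 2. The phagocyte genes Lyz2 (2.85) and Tyrobp (2.23) were higher, and Adgre1, C1qa and C1qc were seen on the replicate 2 arrays alone, with signals of at most 76.9. Laptm5 and Itgam, which are leukocyte genes too, were lower at -5.79 and -3.03. Ptprc and Spi1, which define leukocytes, were well above background on no array.

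All 5 tested adipocyte markers were higher, among them Fabp4, the fatty acid carrier, with signals of 210, 110 and 114 against 3530, 3666 and 2838, and the list summed to 12167 to 13380 in replicate 1 and 28451 to 35447 in replicate 2. Skeletal muscle markers (3 higher and 1 lower of 5) summed to 3404 to 4099 and 17101 to 19268, with the sarcomeric actins Acta1 and Actc1 at 2.98 and 2.92. The lower member was at -2.68, and 5 of the 13 listed were well above background on no array. Endothelial markers had 4 of 5 tested higher, summing to 2206 to 2671 and 4769 to 5437, while Pecam1 and Cdh5, which define the type, were well above background on no array. Cartilage and bone markers had 3 higher and 3 lower of 7 (summed signal 32943 to 36948 and 91482 to 114045), with Sox9 at 2.92 and Col2a1 at -1.91. Neural markers had 1 higher and 4 lower of 7 (summed signal 40084 to 45424 and 28914 to 34791), with Stmn2, a neuronal microtubule protein, at -4.40. Of 15 primitive endoderm and trophoblast markers 3 were tested and 10 were well above background on no array. Of 7 genes that mark sex chromosomes, 5 were well above background on all 6 arrays: Xist, the RNA of the inactive X, at 4908 to 6156, and the Y-linked Ddx3y, Eif2s3y, Kdm5d and Zfy1. Xist and Y-linked genes were thus measured together under both numbers.

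**Figure D4:**
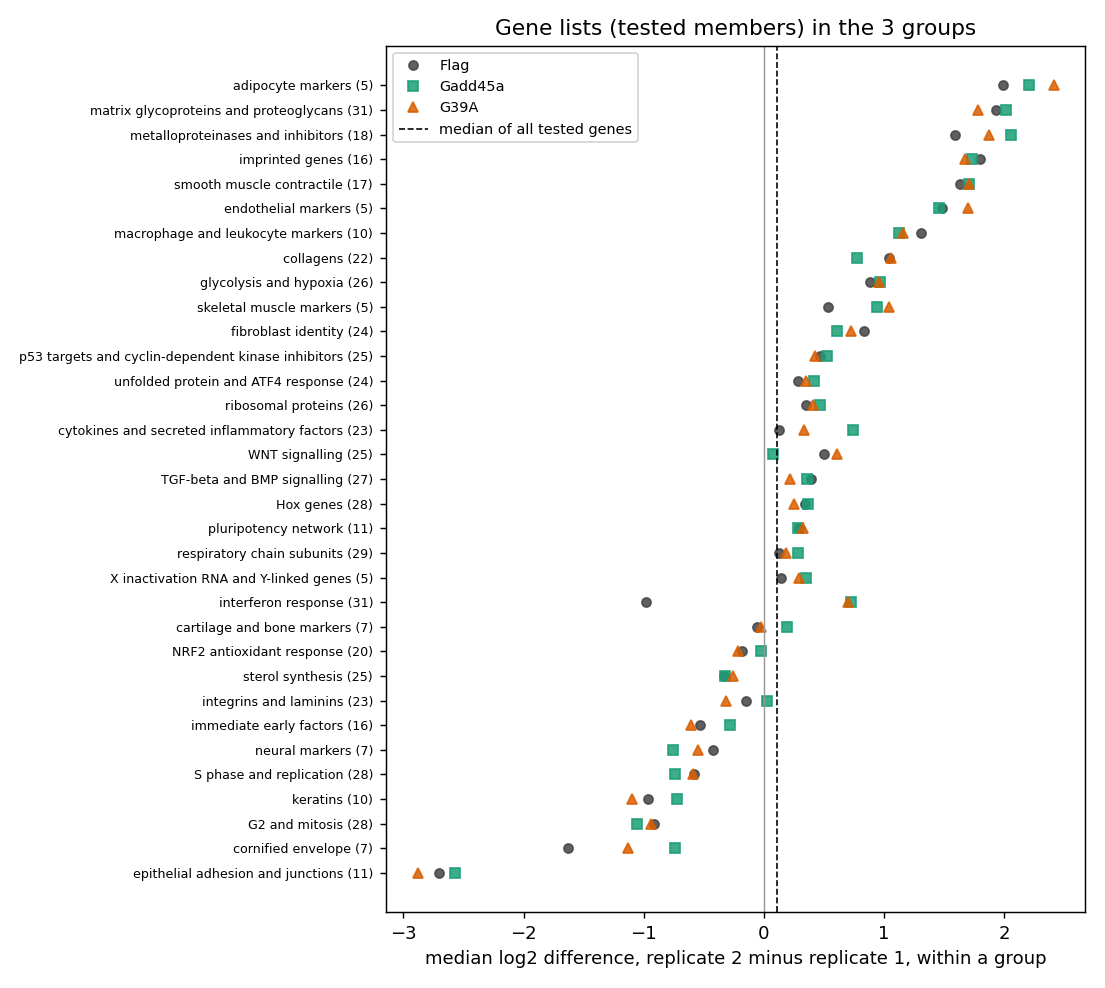
Median log2 difference, replicate 2 minus replicate 1, of each list with at least 5 tested members (number in brackets) within Flag (circles), Gadd45a (squares) and G39A (triangles); the dashed line is the median of all tested genes, 0.11. The 3 groups lie close together in most lists, and in the interferon list Flag is at -0.98 with Gadd45a at 0.72 and G39A at 0.70.

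The interferon response, the antiviral programme set off by viral nucleic acids, was the list with the widest spread of group medians, 1.71, against 0.89 for the next list, the cornified envelope. Of 31 tested genes 6 passed as higher in replicate 2 and 4 as lower (median 0.07). Within Flag 25 of them were lower in replicate 2 and the median was -0.98. Within Gadd45a and within G39A 24 were higher, with medians of 0.72 and 0.70. Each of these differences has 1 array a side, so the contrast between groups was not tested. The list median was 0.65 without the Flag pair, -0.20 without the Gadd45a pair and -0.15 without the G39A pair. With slide as a random block in place of group 6 of the 31 passed.

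Rsad2, Ifi44 and Trim30a were chosen for moving in opposite ways between the groups, so they illustrate the pattern and add no support to it. Rsad2, which encodes the antiviral enzyme viperin, had signals of 361, 408 and 380 in replicate 1 and 111, 1283 and 584 in replicate 2. Over all 6 arrays this probe differed by 0.36 and the other tested probe of Rsad2 by 0.97. Ifi44 gave 384, 407 and 549 against 179, 1520 and 1107, and Trim30a 261, 326 and 264 against 117, 894 and 723. On each the replicate 1 arrays lay close together and Flag was the lowest array of replicate 2. None of the 3 passed the test (adjusted p of 0.645, 0.286 and 0.293). Ifit3 was higher in all 3 groups (1033, 1134 and 949 against 2164, 12230 and 9879), and Oas2 was lower in all 3 (2194, 2833 and 2592 against 31, 218 and 166).

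**Figure D5:**
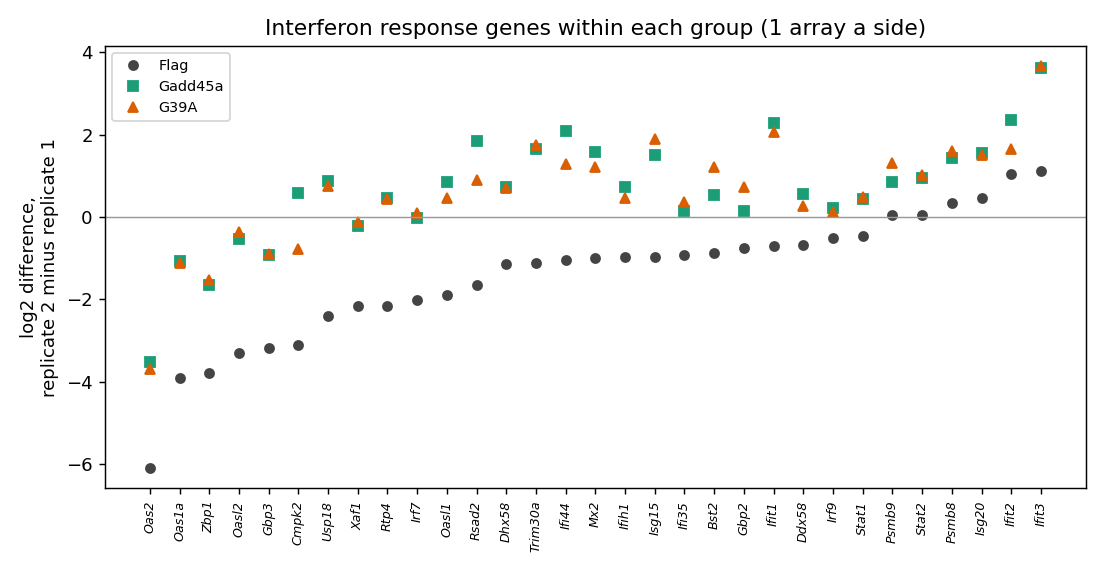
Log2 difference, replicate 2 minus replicate 1, of the 31 tested interferon genes within each group, ordered by the value in Flag (circles), with Gadd45a as squares and G39A as triangles. On all 31 the Flag value lies below those of the other groups, from -6.09 for Oas2 to 1.12 for Ifit3.

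Many of the largest differences lay outside the lists. Crym, a thyroid hormone binding protein (chromosome 7, 127329970 to 127330029), had signals of 76702, 81949 and 101166 in replicate 1 and 112, 144 and 135 in replicate 2 (-9.20 ± 0.11, adjusted p = 5.07e-06). Ceacam1, an adhesion molecule of epithelia and leukocytes (chromosome 7, 26246761 to 26246820), gave 15965, 16326 and 19597 against 27.1, 29.7 and 24.4 (-9.14). Nat8l, the enzyme that makes N-acetylaspartate, differed by -8.11, and Aspa, the enzyme that breaks it down, by -7.19. The others among the 12 largest were the water channel Aqp3 (-7.98), Akr1c18 (-7.64), the secretory protein Scg5 (-7.58), the amylase Amy1 (-7.32, with another probe at -3.16), Acsbg1 (-7.30), Sbspon (-7.29), the WNT and BMP antagonist Sostdc1 (-7.28) and Plekhh1 (-6.94). Members of the Akr1c and amylase families have close copies, and signal on one probe can include theirs.

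On the higher side, Ptn, the growth factor pleiotrophin, had signals of 1743, 885 and 2026 against 118753, 104420 and 119981 (6.46 ± 0.20). Gas1, a membrane protein of growth-arrested fibroblasts, gave 176, 113 and 207 against 7055, 4641 and 6715 (5.41 ± 0.09). With them, after Mfap4, Il1rl1, Dlk1, Aspn, Ogn and Lum, stood the oxysterol hydroxylase Cyp7b1 (5.62), the angiotensin receptor Agtr2 (5.28), the matrix protein Svep1 and the interleukin 1 receptor Il1r1 (both 32.1-fold). The signals of these 24 genes did not overlap between the numbers, as the choice of the genes required.

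Of the 41096 probes with an unmarked spot on every array, 711 probes of 639 genes were well above background on all replicate 1 arrays and on none of replicate 2 (1.73%), and 534 of 498 genes the other way (1.3%). These were chosen by their signals, so the values are a description with no test. Without the Gadd45a replicate 1 array, the one with the fewest spots above background, the first count was 1070. Among genes with a symbol, the bound on the fold had a median of 4.73 for the 547 seen only in replicate 1 and 2.24 for the 398 seen only in replicate 2. It reached 10-fold for 157 and 25 of them. The dimmest bright spot was at 21.5 and the brightest dim one at 24.6 in the first set, and at 17.2 and 44.4 in the second, since the mark is set from each spot's own background.

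The brightest of the replicate 1 set came from unlike tissues. Hbb-y, an embryonic globin (chromosome 7, 111001412 to 111001471), had signals of 11482, 15955 and 14047 against 9.6, 8.6 and 12.3 (at least 622-fold lower in replicate 2), and other globins of its cluster have similar sequence. Aoah, an enzyme of myeloid cells that inactivates endotoxin, was at least 558-fold lower and Mal, a membrane protein of myelin and of apical membranes, at least 507-fold. Rnase1, the pancreatic ribonuclease, was at least 402-fold lower and Csn1s1, the milk casein, with signals of 8290, 8573 and 9308 against 3.5, 4.2 and 4.3, at least 396-fold. Tmprss5, Sptssb, the thyrotropin-releasing hormone Trh and Pipox were at least 257-fold, 228-fold, 207-fold and 175-fold lower.

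The replicate 2 set was dimmer. Megf6 (chromosome 4, 153648364 to 153648423) gave 5.1, 7.3 and 17.3 in replicate 1 and 1128, 367 and 791 in replicate 2, at least 31.8-fold higher. Ptgfr, the prostaglandin F receptor, was at least 28.0-fold higher, with signals of 604, 615 and 599 in replicate 2. After Cdh3 came the fibulin Fbln7 (at least 24.8-fold), the platelet chemokine Ppbp (24.1-fold), the lectin Reg3g (20.5-fold), Tmem26 (19.9-fold), Itih2 (17.4-fold), the muscle caveolin Cav3 (17.0-fold) and Evi2a (16.0-fold). For Ppbp the Gadd45a array was the brightest, at 1375 against 260 and 400, and for Megf6 it was the dimmest.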

How the data were processed

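The members, gene lists, naming rule and alternatives were chosen with earlier results of these data known. Per the submitters' processing notes, spots were read with Agilent Feature Extraction 10.7. The deposited processed intensity is background-subtracted and detrended within an array, per the file headers, with surrogate values for dim spots, and is not normalized between arrays. The deposited value table, on a log2 scale, served as an alternative. Probe coordinates are those of the file headers (mm9).

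Control spots and spots marked as outliers were left out, the spots of a probe were averaged, and values were centred by taking off the 75th percentile (log2) of their array. Of 41174 probes, 27761 were named by accession through a RefSeq table (GRCm38.p6, names only) and 13413 kept the name in the files. The test was limma 3.58 (lmFit and eBayes, R 4.3) with group as a block, 2 residual degrees of freedom, Benjamini-Hochberg adjustment over the 21637 probes well above background on all 6 arrays, and a threshold of 0.05. The fit was tested on simulated data. The median standard error was 0.10 (log2); the number of arrays limits the precision. Lists have no test and are described by counts and medians.

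Named genes are the 12 shown by array, the 12 largest differences each way without overlap, the 10 on/off genes each way with the largest bound, up to 3 called members of each list each way with the largest difference, on/off list members, and the 6 genes of largest spread among those that moved 2-fold in opposite ways; genes known only by an identifier are not named. Promoters are the first listed start of each gene. Alternatives were normexp correction (offset 50), quantile normalization, the deposited table, the median of detected probes, other filters, other blocks and leaving out each array. Some genes that the rule picks are not reported here.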

Additional observations from a re-analysis of the deposited data

Results flagged for a closer look

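The difference between the numbers went opposite ways in the groups for the interferon list and for 6 single genes; each difference has 1 array a side, so none of these contrasts was tested. The list medians spanned 1.71 (log2), from -0.98 in Flag to 0.72 in Gadd45a. Rsad2 spanned 3.50 (-1.65 in Flag, 1.84 in Gadd45a, 0.90 in G39A), Ifi44 spanned 3.14 (-1.05, 2.09 and 1.29) and Trim30a spanned 2.85 (-1.11, 1.65 and 1.74). Ddx60, an RNA helicase of the interferon response that was not in the list, spanned 2.44 (-1.41, 1.03 and 0.68).

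The other 2 genes had another order. Hdac9, a histone deacetylase, spanned 3.19: its signal was 436 on G39A replicate 1 and between 58.7 and 170 on the other 5 arrays. Cma2, a mast cell chymase, spanned 2.63: its signal was 563 on Gadd45a replicate 2 and between 74.4 and 227 on the other 5. In all, 14 of the 21637 probes, of 13 genes, moved at least 2-fold in opposite ways.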

How the results depend on the processing

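The count of called probes stayed within 1.5 times of 12590 under every alternative run except that of size. This compares counts and not shares, as the filters and the use of 1 probe per gene change the number tested. It was 12700 with normexp, 12444 with quantile normalization, 12433 in the deposited value table, 12384 with the median of detected probes, 14145 of 24691 with probes bright in 1 number admitted, 10965 of 41096 without a filter, 12637 without the block for group, and 8595 of 14105 with 1 probe per gene. Counting only differences of at least 2-fold left 3811 probes, 1859 higher and 1952 lower. Without a filter the median over probes was -0.10 in place of 0.10. Slide as a random block together with group could not be fitted; slide without the block for group, added after seeing the data, gave 12081. Leaving out each array gave 9880 to 10966 calls, 5611 to 6265 higher and 4269 to 4701 lower, and both arrays of a pair then give the same fit. Probes seen only in replicate 1 numbered 641 with the other detection mark, 712 with outlier spots kept and 730 to 1070 with an array left out. Those seen only in replicate 2 numbered 391, 534 and 550 to 773.

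The replicate number pairs the groups here and is itself the term tested; for Gadd45a and for G39A against Flag, limma called 0 probes with the replicate block and 0 with no replicate block (67 and 23 probes at an unadjusted p under 0.05, against 1833 and 580).

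Of 194 named genes, 15 past the threshold lost it under some alternative, 7 of them with all 6 arrays kept. List medians that changed sign were those of the interferon list (from -0.20 without either Gadd45a array, through -0.15 without either G39A array, to 0.65 without either Flag array), cartilage and bone markers (-0.042 without either Gadd45a array to 0.082 without either Flag array) and respiratory chain subunits (-0.044 with quantile normalization, -0.046 in the deposited table). Without a change of sign, 68 values of list medians in 26 of the 34 lists moved by more than 1 SD of the 3 group medians, among them epithelial genes (-1.92 with normexp, in place of -2.82) and skeletal muscle markers (0.37 with normexp, in place of 0.84). Within that SD, the median of cytokines was 0.089 with quantile normalization, in place of 0.34, and that of the WNT list moved too (0.20 without either Flag array and 0.55 without either Gadd45a array, in place of 0.33). The respiratory gene Ndufa2, at 0.34, was at -0.0054 in the deposited table. The cause was not tested. Genes near background have only a bound, and their number depends on the detection mark.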
